A study of Mus musculus with 16 samples.

Results

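The cells described here were the 250 cells, out of 2597 in both deposited matrices, that spent the largest share of their transcripts on 7 genes: Dmbt1, Gsdmc2, Gsdmc3, Gsdmc4, Ces2a, Ugt2b5 and Ms4a18. They were chosen in steps. A cell had to carry at least 900 unique molecular identifiers (UMIs, the tags that count each captured RNA molecule once), which 1961 cells did, and no UMI of Top2a or Mki67, which removed 576 cells with a UMI of either gene (here called dividing cells). The remaining 1385 cells are called eligible. Eligible cells were ranked by a score, the summed UMIs of the 7 genes divided by all UMIs of the cell, and the 250 highest were taken. The last cell inside had a score of 30.6 UMIs per 10000 and the first outside had 30.3, with a median of 67.0 and a maximum of 332 among those taken. Of the eligible cells, 662 had a score above 0. High levels of the 7 genes therefore selected these cells and are given below as a description only.

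The study compared the stem cell lineage of normal and precancerous intestine at postnatal day 16, in untreated outbred mice, with 8 deposited samples of each genotype. WT littermates were the controls. ROBO-Crainbow mice (ROBO below) carried a Cre-activated transgene that encodes human RSPO3 and its fusions with PTPRK at its 3 positions, and Villin-Cre switched it on in the intestinal epithelium, so that the different transgene outcomes are mixed within the ROBO cells. Crypts were isolated from the small intestine with EDTA and mechanical disruption, dissociated with trypsin and Collagenase/Dispase, captured on a ddSEQ isolator and turned into 3′ libraries. The 1348 WT cells held 2682127 UMIs and the 1249 ROBO cells held 2428435. Cells of a genotype are deposited as 1 pooled matrix and were not assigned to samples, so no test between genotypes or between cell groups was made, and every interval below is a 95% interval for counting error only.

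Enterocytes are made in the crypt and change as they move up the villus: cells at its base express antimicrobial and detoxifying genes, cells further up digest and absorb, and cells at the tip are shed. Dmbt1 encodes a secreted mucosal glycoprotein that binds microbes. The Gsdmc genes encode gasdermin C proteins of the pore-forming gasdermin family, and Ces2a and Ugt2b5 encode detoxifying enzymes, a carboxylesterase and a glucuronosyltransferase. Ms4a18 belongs to the membrane-spanning Ms4a family. In mice, weaning brings a switch from lactase (Lct) and protein uptake through cubilin (Cubn) to sucrase-isomaltase (Sis).

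The 3 Gsdmc genes lie side by side on the minus strand of chromosome 15 in GRCm38, Gsdmc2 at chr15:63824346-63845177, Gsdmc3 at chr15:63857724-63878558 and Gsdmc4 at chr15:63891264-63912297 in the GENCODE M21 annotation. Their transcripts are similar copies. Over the aligned bases of whole transcripts, identity was 96.9% between Gsdmc2 and Gsdmc3, 92.5% between Gsdmc2 and Gsdmc4 and 92.4% between Gsdmc3 and Gsdmc4. Over the last 300 bases, the end that 3′ libraries read, 171, 181 and 290 bases aligned for these pairs. Identity there was 98.2%, 96.1% and 95.2%, so the split of counts among the 3 is uncertain. Dmbt1 lies at chr7:131032053-131121630 and Ces2a at chr8:104734003-104741634, both on the plus strand, while Ugt2b5 (chr5:87124960-87140318) and Ms4a18 (chr19:10997025-11018031) lie on the minus strand. The 250 bases before the RefSeq start were read from RefSeq GRCm38.p6 for 4 of the 7 genes and are shown because they are the start-site sequences of genes that defined the cells. The others are Gsdmc2, Gsdmc4 and Dmbt1. Each is printed 5′ to 3′ on the strand of its gene, with capitals for matches to any of 6 motifs on either strand: GATAAG for the GATA factors, TTTATG for the CDX factors, GTTAAT for HNF1, AGGTCA for nuclear receptors, TATAAA for the TATA box, and the STAT motif.
Gsdmc3 promoter, chr15:63878559-63878808, minus strand: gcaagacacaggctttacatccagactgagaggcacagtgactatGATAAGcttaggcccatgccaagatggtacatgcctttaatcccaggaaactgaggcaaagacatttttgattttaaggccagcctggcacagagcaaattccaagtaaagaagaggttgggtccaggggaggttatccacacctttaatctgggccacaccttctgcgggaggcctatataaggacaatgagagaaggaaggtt
Ces2a promoter, chr8:104733753-104734002, plus strand: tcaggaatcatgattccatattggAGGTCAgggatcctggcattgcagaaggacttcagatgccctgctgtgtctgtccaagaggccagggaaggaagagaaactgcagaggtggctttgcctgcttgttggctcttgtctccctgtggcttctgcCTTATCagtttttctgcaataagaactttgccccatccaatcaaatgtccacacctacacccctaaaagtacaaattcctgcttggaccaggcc
Ugt2b5 promoter, chr5:87140341-87140590, minus strand: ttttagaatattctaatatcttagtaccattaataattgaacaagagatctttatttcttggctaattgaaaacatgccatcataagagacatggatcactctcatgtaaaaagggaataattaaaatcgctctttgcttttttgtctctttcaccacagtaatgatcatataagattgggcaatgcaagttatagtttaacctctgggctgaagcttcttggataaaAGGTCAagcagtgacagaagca
Ms4a18 promoter, chr19:11017964-11018213, minus strand: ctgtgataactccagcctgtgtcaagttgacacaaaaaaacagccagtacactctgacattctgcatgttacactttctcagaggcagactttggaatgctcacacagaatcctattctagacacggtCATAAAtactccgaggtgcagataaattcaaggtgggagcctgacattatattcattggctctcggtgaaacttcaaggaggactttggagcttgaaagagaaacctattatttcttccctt
The GATA letters were found before Gsdmc3 and, in reverse complement, before Ces2a. The nuclear receptor letters stood before Ces2a and Ugt2b5, and the CDX letters, in reverse complement, before Ms4a18. Of all 32851 promoters of this length, 6.55% held the GATA letters, 14.0% the nuclear receptor letters, 10.8% the CDX letters, 6.43% the HNF1 letters, 5.85% the STAT motif and 12.4% the TATA box letters. A match describes the letters and is not a binding site.

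Before any comparison, the order of cells in the files has to be described, because these cells were not spread evenly over it. The total UMIs per cell fell along each matrix, with only 4 rises among 1347 pairs of neighbouring cells in WT and 7 among 1248 in ROBO. The rises cut the cells into 13 runs, 5 in WT and 8 in ROBO, in each of which cells stand from the deepest to the shallowest. The labels do not say what a run is, and whether it is a library, a cartridge or a mouse was not tested. The runs with at least 20 selected cells were set apart, so they were picked by the score itself. Of the 250 cells, 235 (94%) came from these 5 runs: WT run 1 with 27, WT run 5 with 94, and ROBO runs 6, 7 and 8 with 51, 37 and 26. These 5 runs held 494 of the eligible cells. The other 8 runs held 891 eligible cells and 15 of the selected cells, at most 6 in a run.

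As a share of eligible cells, WT run 1 had 36.5% (25.6–48.5, Clopper-Pearson), WT run 5 had 53.1% (45.5–60.6), and ROBO runs 6, 7 and 8 had 45.9% (36.4–55.7), 48.7% (37.0–60.4) and 46.4% (33.0–60.3). Every other run was at 4.55% or lower. The intervals of the 5 rich runs lay wholly above those of the other 8. The same 5 runs stood apart in other respects: over all their cells with at least 900 UMIs, 39.7% to 45.2% were dividing cells, against 16.1% to 22.8% elsewhere. Median depth overlapped only in part, at 1292 to 2710 UMIs per cell in the 5 runs and 1034.5 to 1533 in the others.

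**Figure D1:**
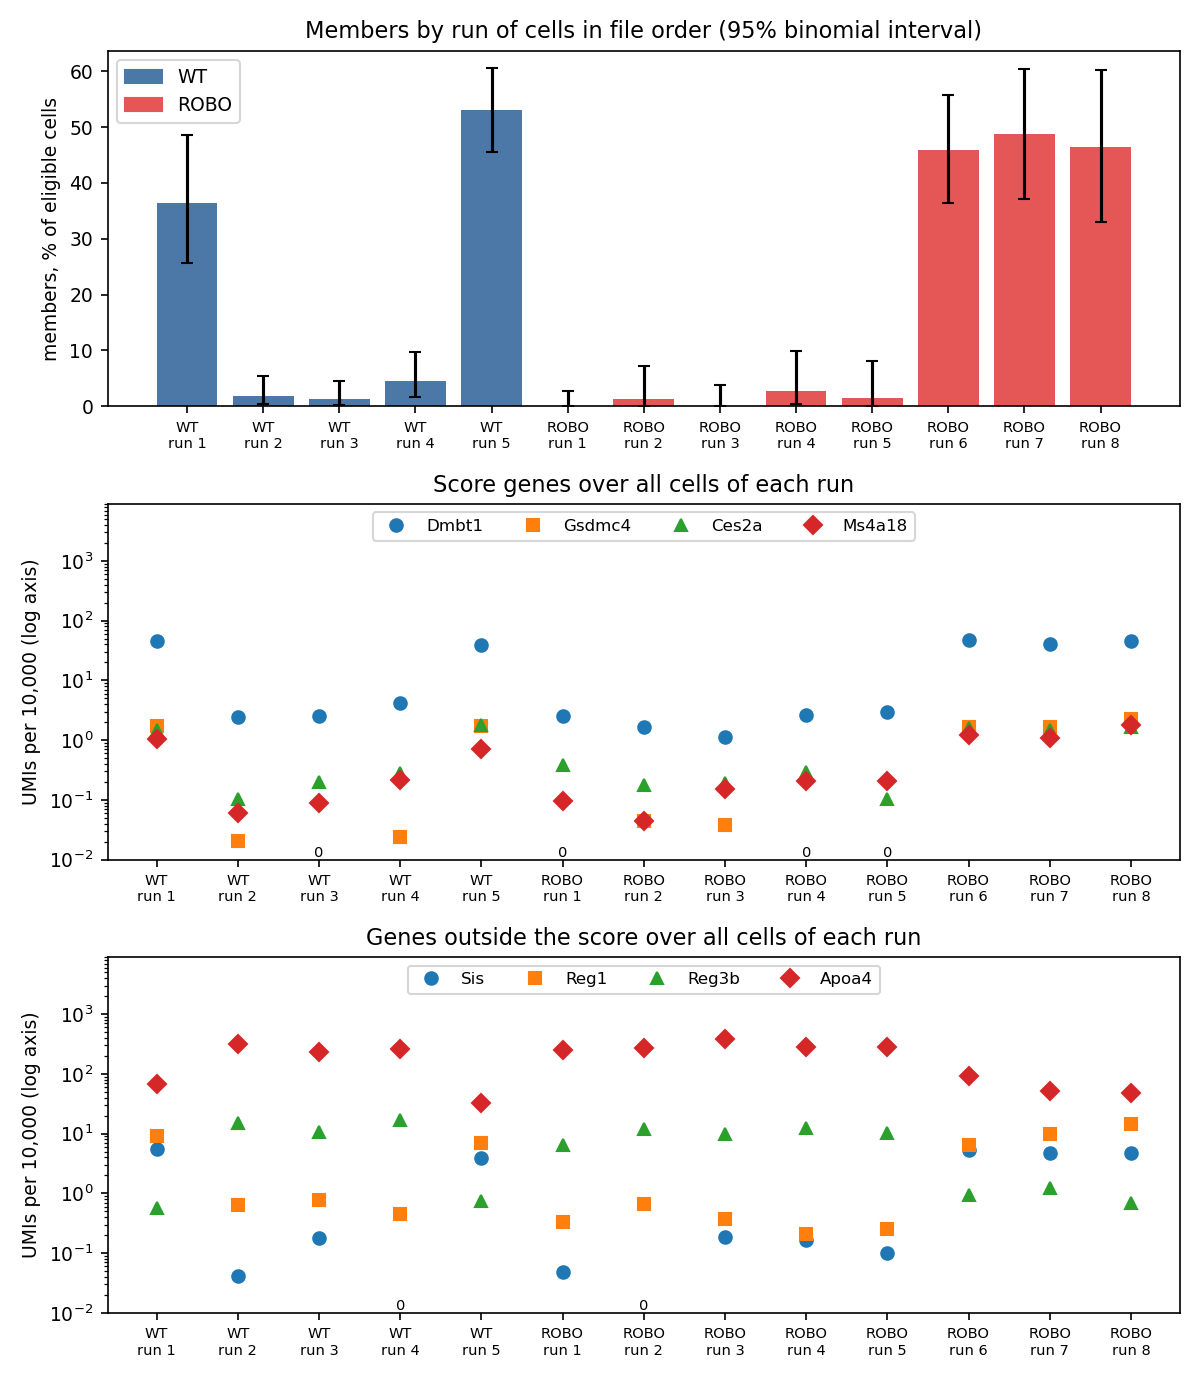
Percent of eligible cells that were selected in each run of cells in file order, with exact 95% intervals (top, axis from 0), and summed UMIs per 10000 over all cells of a run on log axes for 4 score genes (middle) and 4 genes outside the score (bottom), where 0 marks a gene with no UMI in that run. WT runs 1 and 5 and ROBO runs 6 to 8 stood at 36.5% or more, were high for Dmbt1, Sis and Reg1, and were low for Reg3b and Apoa4.

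Dmbt1 followed the runs, which is partly built in, since selected cells picked the 5 runs. Outside the selected cells it was also higher there. Per 10000 UMIs, the other eligible cells stood at 6.52 (5.91–7.17) in the 5 runs and 1.74 (1.55–1.95) elsewhere. For the dividing cells, which were not eligible, the intervals were 48.7–51.4 and 3.05–4.05. Per 10000 UMIs of all cells, the selected ones included, Dmbt1 stood at 45.4 in WT run 1 and 38.8 in WT run 5. It stood at 48.1, 40.7 and 45.3 in ROBO runs 6, 7 and 8. In the other WT runs it stood at 2.46, 2.54 and 4.22, and in the other ROBO runs at 2.50, 1.67, 1.13, 2.65 and 3.00. Gsdmc4 over all cells had the same order, with 1.65 to 2.30 in the 5 runs and at most 0.04 in the others. Genes that the score did not use were split the same way. Sis ran from 3.86 to 5.46 in the 5 runs and reached at most 0.19 elsewhere, Reg1 (a secreted C-type lectin) from 6.57 to 14.8 against at most 0.77, and Mt2 (metallothionein 2, which binds zinc) from 10.4 to 23.4 against at most 1.19. Reg3b, an antibacterial lectin, was the reverse, at 0.56 to 1.24 in the 5 runs and 6.51 to 16.9 elsewhere. Apoa4, a chylomicron protein of absorbing enterocytes, stood at 32.3 to 91.9 against 237 to 383. Because a run with high Dmbt1 gives more high-scoring cells, the comparisons with other eligible cells are given over all of them and again within the 5 runs, where the 235 selected cells meet 259 eligible cells from the same runs.

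Among the 7 score genes, Dmbt1 carried 88.0% of the 4764 score UMIs of the selected cells. It was detected in 248 of them, Gsdmc4 in 88, Ces2a in 83, Ms4a18 in 51, Ugt2b5 in 43, Gsdmc2 in 39 and Gsdmc3 in 23. In 78 cells Dmbt1 was the only score gene with a UMI, and the 2 cells without it were picked by the other genes. A UMI of any of the 3 Gsdmc genes was found in 105 cells, one of Ces2a, Ugt2b5 or Ms4a18 in 122, and both kinds in 55. The name Dmbt1-high cells is therefore used below, since the Gsdmc genes were seen in fewer cells than not.

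Per 10000 UMIs, Dmbt1 stood at 68.3 (66.3–70.4) in the Dmbt1-high cells and 3.03 (2.81–3.25) in the other 1135 eligible cells. Gsdmc4 stood at 3.07 (2.64–3.54) against 0.14 (0.10–0.20), and Ces2a at 2.38 (2.01–2.80) against 0.68 (0.58–0.79). These ratios came from the selection and are given over all eligible cells and within the 5 runs. On the log2 scale, the ratio went from 4.50 over all eligible cells to 3.42 within the 5 runs for Dmbt1, from 4.45 to 2.76 for Gsdmc4, from 3.51 to 2.23 for Gsdmc2 and from 3.22 to 1.99 for Gsdmc3. It went from 1.81 to 0.35 for Ces2a, from 1.81 to 0.53 for Ugt2b5 and from 1.38 to -0.21 for Ms4a18. All 7 genes were part of the rule, with unequal weight in the score, so nothing is read from these ratios or their order.

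Dmbt1 was not confined to the Dmbt1-high cells. Of all its UMIs, 38.4% were in them and 50.1% were in the dividing cells, where the level was 33.8 (32.9–34.7) per 10000. The score of 223 dividing cells (38.7% of them) was at or above that of the last selected cell. Gsdmc4 had 44.1% of its UMIs in the Dmbt1-high cells and 45.5% in the dividing cells. Ces2a was different, with 32.3% in the Dmbt1-high cells, 24.8% in dividing cells and 36.5% in the other eligible cells, and Ms4a18 had 44.2% of its UMIs in those other cells. Within the 5 runs, Dmbt1 per 10000 UMIs ran from 37.3 to 64.0 in the dividing cells, from 65.3 to 71.3 in the Dmbt1-high cells and from 5.79 to 8.32 in the other eligible cells.

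Low levels of Dmbt1 in the 5 runs were also found in cells marked as other types. Immune-marked cells (at least 5 UMIs of a list of leukocyte genes) should lack the gene, and 11 of 19 of them (57.9%, median depth 1983 UMIs) had a Dmbt1 UMI, at 2.89 (1.49–5.05) per 10000. The other eligible cells of the 5 runs had a UMI in 58.7% of cells at a median depth of 2231 UMIs, which is at the share in immune-marked cells. In the other 8 runs, 0 of 12 immune-marked cells had a Dmbt1 UMI, which allows up to 1.30 per 10000 (Poisson). A single Dmbt1 UMI in a cell of the 5 runs was therefore not read as expression. The summed level of the other eligible cells in these runs was nevertheless above that of the immune-marked cells, at 6.52 (5.91–7.17), and so was that of the dividing cells (interval 48.7–51.4). The level in the Dmbt1-high cells was fixed by the rule. Cells ranked by Lct and Cubn, and cells ranked by the villus-tip genes Ada, Gpx3 and Mfi2, stood at 3.47 and 3.67 in the 5 runs.

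The Dmbt1-high cells were next compared with the other eligible cells over all genes, to see what they shared beyond the score. The 25 genes with the highest ratio, of 5563 genes with at least 100 UMIs over both sets, included epithelial and cell cycle genes. Reg1 led with 14.4 against 3.41 per 10000, a log2 ratio of 2.08 (2.03 in WT and 2.13 in ROBO). It was followed by Ccl28, a mucosal chemokine, at 2.05 and Cdc20, an activator of the anaphase-promoting complex, at 2.02. Gstm2, a glutathione transferase, stood at 1.94, Mt2 at 1.92 and Spc24, a kinetochore protein, at 1.91. Others among the 25 were the cyclins Ccna2 (1.85) and Ccnb2 (1.81), the centromere proteins Cenpa (1.82) and Cenpw (1.70), Birc5 (survivin, 1.66), Cdca3 (1.81), the actin regulators Fam101b (1.85) and Csrp2 (1.56), and the Wnt receptor Fzd5 (1.51). Maoa (monoamine oxidase A) and Arg2 (arginase 2, at 1.48) stood near its end. All 25 were higher in the Dmbt1-high cells in both genotypes.

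Over all 5563 genes, 200 (3.6%) were at least 2-fold higher and 439 (7.89%) at least 2-fold lower in the Dmbt1-high cells, and 94 and 325 of them passed 2-fold in WT and in ROBO alike. The median log2 ratio of all genes tested was 0.15. Within the 5 runs, 2615 genes could be compared, of which 42 (1.61%) were at least 2-fold higher and 155 (5.93%) at least 2-fold lower, around a median of 0.17. Of the 200 higher genes, 99 could be compared there and all 99 kept their direction, but 20 kept the 2-fold size. The median log2 ratio of these 99 genes was 0.72 within the 5 runs against 1.15 over all eligible cells. Of the 439 lower genes, 143 could be compared, 142 kept their direction and 110 the size. Among the 25 leading genes, 14 could be compared within the 5 runs and all 14 stayed above 0, while 5 stayed past 2-fold.

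Those 5 were Fam101b, at 1.33 against 0.41 per 10000 with a log2 ratio of 1.69 (1.04–2.38), Cdca3 at 1.20 (0.70–1.71), Csrp2 at 1.02 (0.70–1.35), Fzd5 at 1.02 (0.61–1.44) and Cenpa at 1.00 (0.42–1.61). Each of the first 4 was higher in the Dmbt1-high cells of all 5 runs. Reg1 and Mt2, the most abundant leading genes, were at 0.39 (0.25–0.53) and 0.28 (0.14–0.41) within the 5 runs. Their runs did not go one way: the log2 ratio of Reg1 was -1.57 in WT run 1 and 1.38 in WT run 5, and it was 0.66, -0.34 and 0.73 in ROBO runs 6, 7 and 8. Tstd1 (0.38), Maoa (0.33) and Arg2 (0.11) shrank in the same way.

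**Figure D2:**
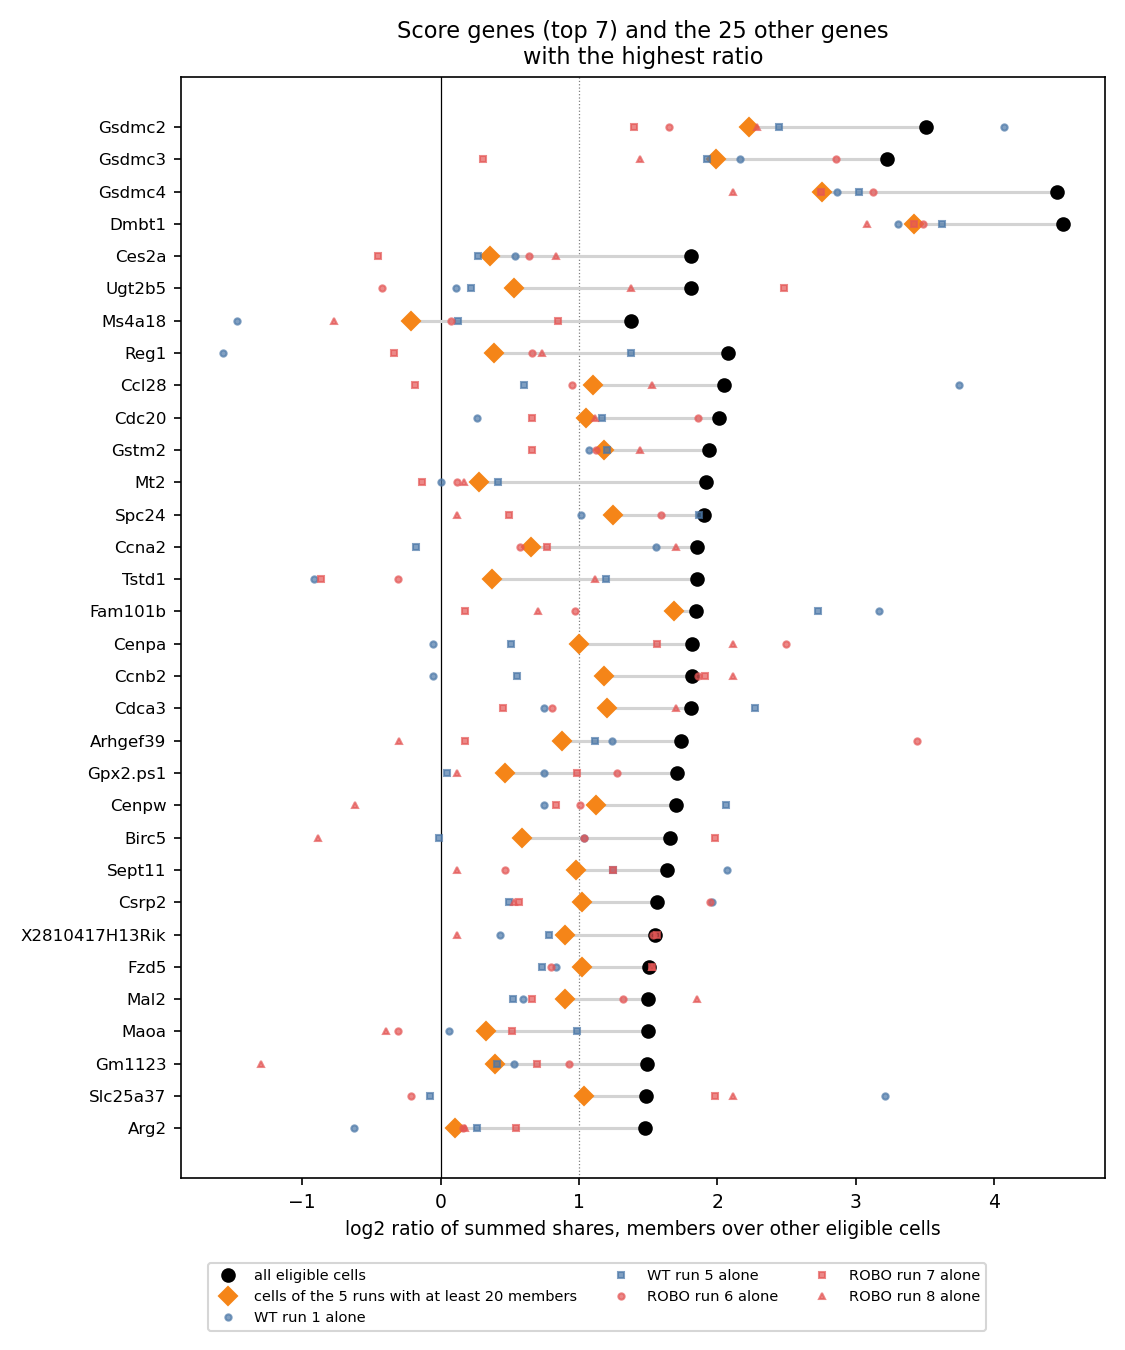
Log2 ratio of summed UMI shares, Dmbt1-high cells (members) over other eligible cells, for the 7 score genes and the 25 other genes with the highest ratio, over all eligible cells (black), within the 5 runs together (orange) and in each run alone (small symbols), with a dotted line at 2-fold. For most genes the orange point lies left of the black one, among them Gsdmc4, Reg1, Mt2 and Ms4a18, and by little for Fam101b.

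Ranking the genes within the 5 runs, a ranking added after the runs were seen, put other genes beside Fam101b at the top. Mst1r, the receptor tyrosine kinase RON, had a log2 ratio of 1.54 (0.96–2.14), Ide (insulin-degrading enzyme) 1.48 (0.87–2.12), Prss32 (a serine protease) 1.42 (0.99–1.86), Mgat4a (an N-glycan branching enzyme) 1.23 (0.90–1.56) and Id1 (an inhibitor of helix-loop-helix transcription factors) 1.15 (0.80–1.51). Each was higher in all 5 runs. The most abundant was Krt19, an epithelial keratin of the lower crypt-villus axis. It stood at 45.6 per 10000 in the Dmbt1-high cells against 20.01, a log2 ratio of 1.19 (1.09–1.28), and at 0.70, 1.35, 1.23, 1.53 and 0.94 in WT runs 1 and 5 and ROBO runs 6, 7 and 8. Krt20, a keratin of mature villus cells, went the other way with a log2 ratio of -3.04. Of the 42 genes past 2-fold, 36 were higher in every run, and of the 155 lower genes 113 were lower in every run.

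At the other end, the 12 genes with the lowest ratio over all eligible cells included genes of villus-tip enterocytes and of other cell types. Gpx3, a secreted glutathione peroxidase, had 3 UMIs in the Dmbt1-high cells against 2406, and within the 5 runs 3 against 216, a log2 ratio of -6.01 (-8.30 to -4.45). Cubn had 3 UMIs against 713, and 1 cell held all 3. Npl, Mfi2, Sprr2b and Smcp, listed with it, had 1 or 2 UMIs each. The hormone genes Sst and Gip had 1 and 4 UMIs, but 98.8% of the Sst UMIs outside came from 1 cell. The lymphocyte genes Ccl5 and Gzma had 1 and 5 UMIs. Gm15315 and Gm15299 had 1 UMI each, and 80.3% of the UMIs of Gm15299 outside were in 1 cell.

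These cells had been proposed as bottom-of-villus enterocytes, and lists of marker genes were set against that name. Of 15 defense genes of the villus bottom, Reg1, Lypd8 (an anti-flagellar surface protein) and Pigr (the polymeric immunoglobulin receptor) were at least 2-fold higher over all eligible cells, with log2 ratios of 2.08, 1.00 and 1.20, and Il18, Tm4sf4 and Cdhr2 were at least 2-fold lower. The median of the 15 was 0.36. Within the 5 runs, 13 were compared, none passed 2-fold upwards, 3 passed it downwards and the median was -0.01. Of all genes compared there, 1.61% passed it upwards and 5.93% downwards around a median of 0.17, so none upwards in 13 is near that share. The summed level there was 113 per 10000 in the Dmbt1-high cells against 94.6, higher in WT run 5 (119 against 79.5) and ROBO runs 6 (106 against 104), 7 (102 against 86.5) and 8 (131 against 99.7) and lower in WT run 1 (102 against 113), so the sum and the median differed. Lypd8 and Pigr then stood at 0.38 and 0.68. Over all eligible cells the list summed to 119 per 10000 in the Dmbt1-high cells and 74.2 in the other eligible cells. Those of the other eligible cells with a UMI of Sis or Gsta1 stood at 124. Reg3b stood at 6.15 against 8.73, a log2 ratio of -0.51, and most of it came from few cells: it was at 120 in the 15 Dmbt1-high cells of the 8 other runs and at 0.75 in the 235 of the 5 runs.

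Division genes were high although the rule had removed cells with Top2a or Mki67. Of 20 such genes compared, 11 were at least 2-fold higher than in the other eligible cells and none lower, with a median log2 ratio of 1.01; the highest were Cdc20 (2.02), Ccna2 (1.85), Ccnb2 (1.81), Birc5 (1.66), Ube2c (1.43) and Hmgb2 (1.38). Within the 5 runs none of 14 passed 2-fold, where 1.61% of all genes were that much higher, and the median was 0.64 against 0.17. Against the dividing cells, which the rule set apart by Top2a and Mki67, 14 of 26 were at least 2-fold lower and none higher, with a median of -1.06. Over all 4703 genes compared with the dividing cells, 52 (1.11%) were at least 2-fold higher and 137 (2.91%) lower. The summed level was 30.5 per 10000 in the Dmbt1-high cells, 15.2 in the other eligible cells, 26.2 in the Lgr5-positive cells, 60.2 in the dividing cells and 4.10 in the Lct and Cubn cells. By this list the Dmbt1-high cells stood between the dividing cells and the remaining ones.

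Genes of crypt stem cells were not raised. Lgr5, the stem cell receptor for R-spondins, was found in 11 of the 250 cells, at 0.23 (0.12–0.38) per 10000 against 0.67 (0.57–0.78) in the other eligible cells. Of 14 stem cell genes compared, 6 were at least 2-fold lower, among them Lgr5 (-1.55), the Wnt target Axin2 (-1.61), Rnf43 (-1.36) and Igfbp4 (-2.24). The exception was Smoc2, higher by 1.31. Within the 5 runs 5 of these genes could be compared and none passed 2-fold in either direction. Of all genes there, 1.61% passed it upwards and 5.93% downwards.

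RNA of the enterocyte digestion and absorption lists was lower in sum than in the cells left behind, over all runs and within the 5 runs. Of 13 brush-border hydrolase genes, 7 were at least 2-fold lower and none higher, with a median of -1.99, and within the 5 runs 7 of 12 were. Lct stood at 2.84 against 18.2 per 10000 (log2 -2.68, within the runs -2.09). Sis stood at 3.18 against 3.06 over all eligible cells and was lower within the 5 runs, at -1.74. The cells left behind there include 124 with a UMI of Sis or Gsta1. The angiotensin-converting enzyme Ace (-4.34) and the meprins Mep1a (-1.99) and Mep1b (-2.50) were lower too, while alkaline phosphatase Alpi (-0.32), Anpep (aminopeptidase N, 0.53) and Mgam (maltase-glucoamylase, 0.32) were nearer to equal.

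Of 18 genes of fat uptake and chylomicron assembly, 13 were at least 2-fold lower and none higher, and within the 5 runs 10 of 15 were. Apoa4 stood at 15.6 per 10000 against 298, and Apoa1 at 4.71 against 125, a log2 ratio of -4.26 and -4.73. The fatty acid binding proteins Fabp1 and Fabp2 were at -1.49 and -1.68. Of 17 nutrient transporters, 10 were at least 2-fold lower, among them Slc2a2, the basolateral glucose transporter (-2.17), and Slc15a1, the peptide transporter (-2.54). The sodium-glucose cotransporter Slc5a1 was at -0.68. Within the runs 4 of 11 transporters were at least 2-fold lower, with a median of -0.67 against -1.54 over all eligible cells. Against the Lct and Cubn cells, where 503 (21.4%) of 2345 genes were at least 2-fold higher and 378 (16.1%) lower, the fat genes were lower in 15 of 16. Of those 249 cells, 225 lay outside the 5 runs, so this comparison also sets runs against each other.

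Markers of other cell types were low in sum against the other eligible cells, which hold cells rich in such markers. Of the genes compared, 9 of 9 Paneth, 5 of 8 goblet, 4 of 5 enteroendocrine, 6 of 6 immune and 4 of 4 fibroblast genes were at least 2-fold lower in the Dmbt1-high cells. Compared within the 5 runs, 5 of 5 Paneth, 7 of 7 goblet, 4 of 4 enteroendocrine and 4 of 4 immune genes were, and no fibroblast gene had enough UMIs. The immune list summed to 0.36 per 10000 against 574 in the immune-marked cells, which were chosen by this same list. In the Dmbt1-high cells, Gzmb, Cd3e, Cd3g, Cd8a, Nkg7 and Fcer1g were at 0. Goblet genes summed to 24.1 per 10000, with a median of 4.06 over cells and 1063 in the highest cell. That sum was below the 53.6 of the other eligible cells and near the 23.0 of the cells ranked by Ada, Gpx3 and Mfi2. It was above the 1.41 of the Lct and Cubn cells, against which 6 of 6 goblet genes were at least 2-fold higher. Of those 249 cells, 225 lay outside the 5 runs, so this contrast is also one between runs. Over all cells of a run, the goblet list summed to 20.3 to 138 in the 5 runs and 3.40 to 17.8 elsewhere. Goblet and Paneth genes made up 1% or more of the UMIs in 10 WT and 2 ROBO cells of the 250. Set against the other eligible cells, which include the Lct and Cubn and the villus-tip cells, the data go partly against the name. The Dmbt1-high cells had less RNA of enterocyte digestion and absorption genes and more of division genes. Their villus-bottom list was higher in sum, but its median gene was level with the other cells of the same runs. Against the Lgr5-positive and the dividing cells over all runs, the brush-border list stood higher, at 27.3 per 10000 against 16.4 and 14.4. The villus-bottom list did too, at 119 against 58.6 and 69.4. The fat list stood at 72.5 against 125 and 71.9. These contrasts were not made within the 5 runs, which held 235 of the 250 Dmbt1-high cells. They held 36 of the 111 Lgr5-positive and 360 of the 576 dividing cells. Over all cells of a run, the villus-bottom list summed to 85.7 to 101 in these runs and 58.5 to 72.6 elsewhere. The brush-border list went the other way, at 30.9 to 37.0 against 38.3 to 51.2. How much of each contrast follows the runs was not tested.

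The Dmbt1-high cells also varied widely among themselves in these lists, so they were ordered by the share of UMIs in the division list and cut into 84, 83 and 83 cells, of which 41, 45 and 46 were WT. The division genes stood at 6.08, 24.7 and 65.4 per 10000 by construction. The villus-bottom defense list fell from 146 (141–151) through 126 to 80.6 per 10000, the brush-border list from 43.3 through 24.8 to 11.1 and the fat list from 123 through 57.1 to 30.04. The stem cell list went up from 5.68 through 14.7 to 18.2. Dmbt1 itself was nearly level, at 63.2, 76.0 and 66.2, and Gsdmc4 was at 3.56, 2.86 and 2.70.

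The other score genes followed the enterocyte lists instead. Ces2a went from 4.24 in the cells with the lowest division share through 1.93 to 0.69 in those with the highest, Ms4a18 from 2.75 through 0.69 to 0.37, and Ugt2b5 from 1.71 through 0.74 to 0.48. Reg1 went from 27.0 through 11.8 to 2.38, and Sis from 5.41 through 3.16 to 0.58. Fabp1 fell from 18.3 through 5.68 to 2.17. In the opposite direction, Gpx2, the epithelial glutathione peroxidase, went from 3.02 through 4.20 to 8.16, and Cps1, the first enzyme of the urea cycle, from 12.3 through 20.9 to 23.2. The score thus put together cells with much Reg1, Ces2a and Sis and little division, and cells with the reverse. Dmbt1 and Ces2a were both part of the rule, and why the Dmbt1 level was similar in these cells was not tested.

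**Figure D3:**
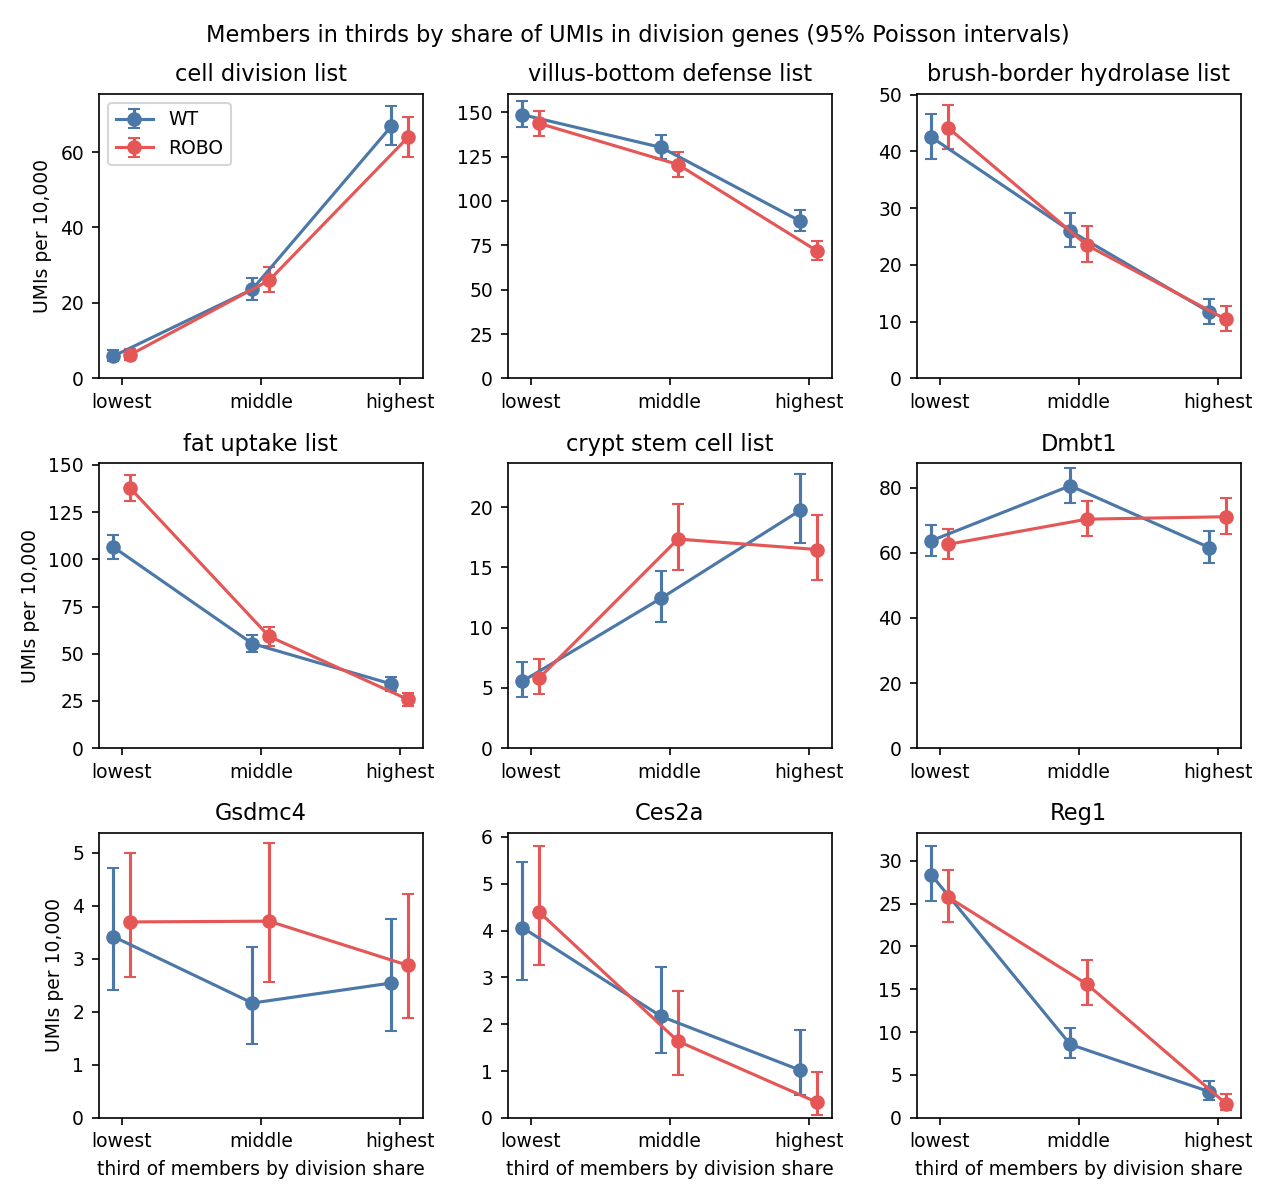
Summed UMIs per 10000 with 95% Poisson intervals in the Dmbt1-high cells with the lowest, middle and highest share of division genes, for WT (blue) and ROBO (red), in 5 gene lists and 4 genes, all axes from 0. The defense, brush-border and fat lists, Ces2a and Reg1 fall from left to right in both genotypes, while Dmbt1 stays between 61.6 and 80.6.

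Over the 250 cells, Spearman's rho with the division share was -0.61 for the brush-border list, -0.56 for the fat list, -0.53 for the villus-bottom defense list, -0.48 for the carboxylesterases and 0.35 for the stem cell list. These correlations are across cells that share libraries and are compositional, since the shares of a cell sum to 1, and they are given as a description. Run by run, the brush-border list stood between -0.74 and -0.54 in the 5 runs, the defense list between -0.70 and -0.50 and the stem cell list between 0.28 and 0.59, so the sign was shared by all 5. With the score itself the lists were weakly correlated, between -0.17 and 0.19. Depth differed little along the division share, with median UMIs of 2462, 2182 and 1994 in the 3 parts.

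Members of the same enzyme families were compared with the score genes Ces2a and Ugt2b5. Among carboxylesterases, Ces2e was more abundant than Ces2a, at 8.45 against 6.25 per 10000 in the other eligible cells (log2 0.43, within the 5 runs -0.51), and Ces2g was at 0.80 against 0.30 (1.41). Among glucuronosyltransferases, Ugt2b34 stood at 5.01 against 2.74 (0.87) and at 0.35 within the 5 runs. Of 23 other xenobiotic enzyme genes, 4 were at least 2-fold higher, namely Gstp1 (1.03), Mgst1 (1.24), Aldh1b1 (1.02) and Akr1c13 (1.22), and Cyp3a25, Cyp2d26 and Ephx2 were at least 2-fold lower. In the rich runs none of 20 was 2-fold higher, against 1.61% of all genes, and the median was -0.32 against 0.17. Gsdmd, the broadly expressed gasdermin, went against the Gsdmc genes, at 0.60 against 3.89 per 10000, or -2.69 in log2 terms (-1.91 within the runs).

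The Dmbt1-high cells were also set beside the eligible cells with a UMI of Sis or Gsta1, a set made without a ranking. Of the 219 eligible cells with a UMI of either gene, 83 were Dmbt1-high cells, which is also 83 of the 250. The 136 that were not had Dmbt1 at 5.31 (4.59–6.11) per 10000, but Ces2a at 3.09 (2.55–3.72), above the 2.38 of the Dmbt1-high cells. The log2 ratio of the Dmbt1-high cells over them was -0.40 for Reg1 and -0.62 for Arg2, but 2.29 for Csrp2 and 2.67 for Cdca3. Their carboxylesterase list summed to 24.6 per 10000 against 12.4, and their division list to 9.66 against 30.5.

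The share of eligible cells taken was compared between genotypes. It was 132 of 699 in WT, 18.9% (16.0–22.0), and 118 of 686 in ROBO, 17.2% (14.5–20.2). The difference, ROBO minus WT, was -1.68 percentage points with a Newcombe interval of -5.73 to 2.38, which covers counting error only and includes 0. Its sign turned with other rules, to 3.52 points without Dmbt1 in the score, 2.57 with dividing cells kept, 2.36 with equal weights, 1.41 with a minimum of 1500 UMIs and 1.07 with 150 cells. In the 5 rich runs alone the shares were 48.2% of 251 WT cells and 46.9% of 243 ROBO cells. The pooled share depends on how many cells each genotype has in the rich runs, and genotype and run cannot be told apart, since each run is of 1 genotype.

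Inside the Dmbt1-high cells, the score genes were described by genotype, with 1 score limit for both. Dmbt1 stood at 69.0 per 10000 in WT and 67.6 in ROBO (log2 -0.03, -0.12 to 0.06) and ranged over the 5 runs from 65.3 to 71.3. Dmbt1 carried 88.0% of the score UMIs, so its level here was largely set by the rule. No likeness of genotypes or runs is read from it. Gsdmc4 was at 2.71 in WT and 3.45 in ROBO, 0.35 (-0.08 to 0.78), and Ces2a at 2.46 and 2.30, -0.10 (-0.59 to 0.39). Gsdmc2, at 1.04 and 1.01, and Gsdmc3, at 0.54 and 0.54, rested on 63 and 33 UMIs in all. Ugt2b5 was at 0.79 and 1.25, and Ms4a18 at 0.91 and 1.79, where 31.0% of the WT UMIs came from 1 cell.

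Across the 1170 genes with at least 100 UMIs in the Dmbt1-high cells, 54 (4.62%) were at least 1.5-fold higher in ROBO and 94 (8.03%) at least 1.5-fold lower, around a median log2 ratio of 0.04. The lowest ratios belonged to secretory genes and to ribosomal copies. Mptx1, a pentraxin gene, was counted 125 times in the WT cells and 2 times in the ROBO cells (log2 -5.86, -8.93 to -3.98), and 1 cell held 75.2% of the WT UMIs. The goblet cell genes Spink4, Tff3 and Agr2 were at -3.12, -2.18 and -1.74, with 43.0%, 50.3% and 34.2% of their WT UMIs in 1 cell. Without the 12 cells rich in goblet and Paneth genes, Spink4 was at 0.50 per 10000 in WT and 0.79 in ROBO, Tff3 at 1.55 and 1.95 and Agr2 at 0.64 and 0.75, so all 3 turned to the other direction. Rps19.ps3 (-2.57), Rpl39 (-1.58), Gm6402 (4.22 against 1.49 per 10000) and Pebp1 (-1.48) completed the 8 lowest. Ribosomal protein genes have near-identical processed copies, so counts of Rps19.ps3, Rpl39, Rpl15 and Rps6 are uncertain.

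The 8 highest were Rpl15 (1.60), the heat shock gene Hspa1b (1.38), the glutathione transferase Gstp1 (1.35), Smim24 (1.27), Btf3 (1.09), Rps6 (1.04), the cyclophilin Ppia (0.98) and the sialyltransferase St3gal1 (0.97). The 2 WT runs also differed from each other for many of these genes. Rpl15 stood at 4.10 per 10000 in WT run 1 and 1.30 in WT run 5, and at 6.41, 6.63 and 4.57 in ROBO runs 6, 7 and 8. Rpl39 stood at 5.42 and 10.6 in the WT runs and at 2.75, 3.31 and 2.67 in the ROBO runs. Spink4 was at 0.13 in WT run 1 and 9.49 in WT run 5, against 0.46 to 1.21 in ROBO. For Smim24, WT run 1 (5.42) was close to the ROBO runs (6.53 to 6.60), and WT run 5 stood alone at 1.75. Hspa1b was high in ROBO runs 6 and 7, at 4.94 and 6.93, while ROBO run 8 (2.16) lay by the WT runs (1.98 and 1.84).

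**Figure D4:**
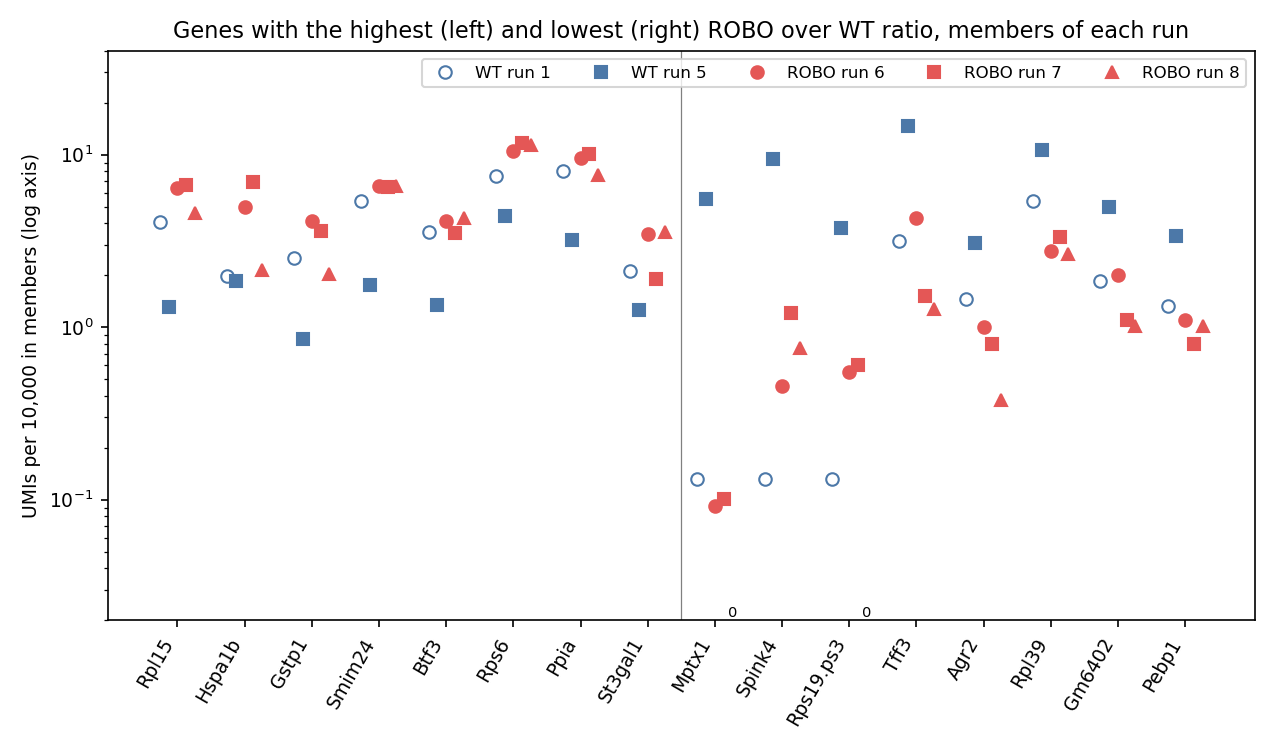
UMIs per 10000 (log axis) in the Dmbt1-high cells of each of the 5 runs for the 8 genes with the highest and the 8 with the lowest ROBO over WT ratio, where 0 marks a run with no UMI. WT run 5 (blue squares) is the lowest or highest point for all 16 genes, and WT run 1 (open circles) often lies among the ROBO runs, as for Gstp1, Ppia, Btf3 and St3gal1.

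Of the genes higher in ROBO, 48 of 54 were past 1.5-fold against WT run 5 alone and 16 against WT run 1 alone, and of those lower in ROBO 91 and 32 of 94 were. Between the 2 WT runs themselves, 180 of the 1170 genes were at least 1.5-fold higher in WT run 5 and 133 lower. Without WT run 5, 60 genes passed 1.5-fold, 45 higher and 15 lower in ROBO. Of the 16 named genes, counted without the UMI minimum, 6 did. Fewer genes, 681, had enough UMIs to be compared without that run. The fall was mostly in the genes lower in ROBO, from 94 to 15, against 54 to 45 for those higher. Against WT run 1 alone, 48 of the 54 higher and 75 of the 94 lower genes kept their direction. WT run 5 holds 94 of the 132 WT cells, and genotype and run cannot be told apart in these files.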

How the data were processed

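Single-cell RNA was counted in WT and ROBO-Crainbow crypt cells. The deposited matrices, 1 per genotype, hold counts, that is, the UMIs of 24421 genes per cell that the authors obtained with the BaseSpace Sequence Hub. GRCm38 (mm10) stands in the submitters' processing notes, and the aligner was not given in the sources used here. Cells are named by genotype and a running number, which ties none of them to one of the 8 samples per genotype and leaves no barcodes to compare. The members and gene lists were chosen with earlier results of these data known.

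UMIs were summed over cells of a set, divided by the set's total and compared as log2 ratios of shares, for genes with at least 100 UMIs over both sets. Thresholds were 2-fold between cell sets and 1.5-fold between genotypes. Poisson (sums), Clopper-Pearson (shares), Newcombe (difference of shares) and conditional exact (ratios) intervals at 95% cover counting error only. Named genes were the 7 score genes, the 25 highest and 12 lowest ratios against the other eligible cells and the 8 highest and 8 lowest between genotypes, with other genes taken from 37 lists. Ranking within runs, and naming genes from it, was added after the data were seen. Comparison sets were the 250 eligible cells highest for Lct and Cubn, the 250 highest for Ada, Gpx3 and Mfi2, the 219 with a UMI of Sis or Gsta1, and cells with an Lgr5 UMI or at least 5 UMIs of the immune list, each without the selected cells. Scrublet (scanpy 1.11.5) marked 2 WT and 4 ROBO cells, too few to count as a working doublet call, and none of the selected cells, so doublets were not removed. Python 3.11.15, numpy 2.4.6, pandas 2.3.3, scipy 1.17.1, matplotlib 3.10.9 and biopython 1.88 were used, and the scripts were tested on simulated data.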

Additional observations from a re-analysis of the deposited data

Results flagged for a closer look

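In 3 genes the Dmbt1-high cells stood above the other eligible cells in WT and below them in ROBO, past 2-fold each way, and the difference was not tested. The log2 ratio of H2.Ab1, a class II antigen-presentation gene, was 1.01 in WT and -1.04 in ROBO, and 92.9% of its 28 UMIs in the Dmbt1-high cells came from 1 cell. For Rps19.ps3 it was 1.39 in WT and -1.12 in ROBO, and in the Dmbt1-high cells of single runs the gene stood at 3.78 per 10000 in WT run 5 and 0.13 in WT run 1. For Arl2bp it was 1.07 in WT and -1.50 in ROBO.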

How the results depend on the processing

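No paired analysis was possible because cells carry no sample number, and for the same reason no replicate could be left out. As reported, the share of eligible cells taken differed by -1.68 points (ROBO minus WT), 200 genes were at least 2-fold higher and 439 lower in the Dmbt1-high cells, with 37 named genes, and 148 genes passed 1.5-fold between genotypes, with 16 named. Equal weights for the score genes gave 107 higher genes. A score without Dmbt1 gave a share difference of 3.52 points, 114 higher and 273 lower genes and 20 of the 37 named. Keeping dividing cells gave a share difference of 2.57 points. Thinning cells to 900 UMIs gave 408 higher genes and 279 between genotypes. A minimum of 30 UMIs per gene gave 487 higher and 881 lower genes and one of 300 gave 44 and 185, while between genotypes a minimum of 50 gave 483 and one of 200 gave 59. Chosen after seeing the data, the comparison within the 5 runs gave 42 higher and 155 lower genes and 24 of the 37 named, and leaving out WT run 5 gave 60 genes between genotypes and 6 of the 16 named. The ROBO over WT log2 ratio reversed for Spink4 with equal weights (0.45), without Dmbt1 (1.10), with dividing cells kept (0.067), without WT run 5 (1.30) and without the goblet-rich cells (0.64). It reversed for Tff3 with equal weights (1.12), without Dmbt1 (1.19) and without the goblet-rich cells (0.34), and for Agr2 with 150 cells (0.11), equal weights (1.15), without Dmbt1 (1.23) and without the goblet-rich cells (0.24). Removing cells or genes changes these counts by construction, and otherwise the cause was not tested. Of the single named-gene values under alternatives, 393 stayed past the fold and 51 did not against the other cells, and 243 did, 17 did not and 12 reversed between genotypes. Genes with few UMIs are limited by depth, at a median of 2134 UMIs per Dmbt1-high cell.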

Other observations

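Among genes of the suckling-to-weaning list, the urea cycle enzyme gene Cps1 stood in the Dmbt1-high cells at 18.5 against 9.49 per 10000, a log2 ratio of 0.96 over all eligible cells and 0.73 within the 5 runs, and the ratio of Otc was 1.04 and 0.59. Fcgrt, the neonatal receptor that takes up milk immunoglobulin, was lower, at -3.72 over all eligible cells and -1.84 within the 5 runs. Of 12 genes of the suckling-to-weaning list compared, 2 were at least 2-fold higher and 6 lower, and within the 5 runs none of 8 was higher and 3 were lower. Among 14 immediate-early stress genes none passed 2-fold, with a median log2 ratio of 0.41, and none of 12 did within the 5 runs (median 0.34). Of 15 genes of ketogenesis and fatty acid oxidation none passed it either, with a median of 0.19, and within the 5 runs 1 of 15 was lower (median -0.07). For all genes the shares were 3.6% higher and 7.89% lower over all eligible cells, and 1.61% and 5.93% within the 5 runs.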
